A study of Caenorhabditis elegans with 8 samples.

Results

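The genes described here are 10 *C. elegans* genes that build the eggshell or act at egg activation: *egg-1* (B0244.8), *egg-2* (R01H2.3), *egg-3* (F44F4.2), *egg-4* (T21E3.1), *egg-5* (R12E2.10), *chs-1* (T25G3.2), *cbd-1* (H02I12.1), *perm-2* (C44B12.1), *perm-4* (C44B12.5) and *mbk-2* (F49E11.1). They were chosen by sequence name for their known roles, not for their values, though with earlier results of these data known. They make up 10 of the 46449 distinct gene names. All 10 had counts in every library and passed the filter on low counts.

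Messenger RNA was sequenced from whole L4 hermaphrodites, the last larval stage, when the germline makes sperm before it turns to oocytes. The 4 groups were *mut-16(pk710)* animals at 25ºC, *mut-16(pk710)* animals at 20ºC, wild-type (N2) animals at 25ºC and wild-type (N2) animals at 20ºC, with 2 biological replicates each. *mut-16* encodes the scaffold of the *Mutator* complex, which amplifies small interfering RNAs in germ cells, and the study asked how heat stress changes the transcripts of these mutants. Each library came from a pooled population of whole worms, so germline and soma were not separated. Animals at 25ºC were collected about 39 h after plating and animals at 20ºC about 56 h after plating, so temperature and time of growth cannot be told apart.

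The *C. elegans* eggshell is laid down within minutes of fertilization and starts from a vitelline layer that already covers the oocyte. Chitin is then made beneath that layer, chondroitin proteoglycans are released from cortical granules, and a lipid-rich permeability barrier closes the embryo off. The kinase MBK-2 is released from the oocyte cortex as the meiotic divisions proceed. MBK-2 marks oocyte proteins for destruction so that the egg becomes an embryo. Transcripts of these genes are made in the germline as oocytes form, though not necessarily only there.

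Total expected counts per library lay between 9914054 and 13227929. *mut-16* itself had 55 to 105 expected counts in the *mut-16* libraries, against 229 to 340 in the wild-type libraries. The summed level of 6 oocyte markers was 178 to 193 CPM (counts relative to the library total, scaled by the TMM method) in *mut-16* at 25ºC, 99.8 to 106 CPM in *mut-16* at 20ºC, 144 to 160 CPM in wild-type at 25ºC, and 206 and 127 CPM in wild-type at 20ºC. None of these 6 markers was at 0 throughout. Replicate 1 of wild-type at 20ºC had a 1.62-fold higher oocyte marker sum than replicate 2, and the counts of every replicate pair differed by more than sampling noise. Counts of calls that rest on wild-type at 20ºC are therefore also given without replicate 1. The summed level of the 31 major sperm protein genes, which mark sperm, was 444 to 461 CPM in *mut-16* at 25ºC, 706 to 958 CPM in *mut-16* at 20ºC, 2205 to 2583 CPM in wild-type at 25ºC and 1318 to 1956 CPM in wild-type at 20ºC. In whole animals, fewer cells of a type and less RNA per cell cannot be told apart.

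By the Ensembl annotation of WBcel235, *egg-1* (5 exons) lies on chromosome III from 5728180 to 5730159, and *egg-2* (5 exons) on the same chromosome from 7058527 to 7060583. *egg-3* (6 exons) lies on chromosome II from 10882408 to 10884441. *egg-4* (5 exons, 3932210 to 3934813), *egg-5* (5 exons, 4168984 to 4171589) and *chs-1* (10 exons, 7554855 to 7559916) are on chromosome I. *cbd-1* (10 exons, 11372991 to 11377627), *perm-2* (5 exons, 1126790 to 1128865), *perm-4* (4 exons, 1121494 to 1125107) and *mbk-2* (14 annotated transcripts, 13009158 to 13035961) are on chromosome IV. *perm-2* and *perm-4* are neighbours on opposite strands with 1682 bases between them, whereas 234170 bases separate *egg-4* from *egg-5*. Exons shared with an overlapping gene came to 42 bases or fewer at any of the 10 genes.

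The 10 genes were not expressed at the same level. Compared per kilobase of the longest annotated transcript, as TPM (transcript counts per kilobase, scaled to the same sum in every library), *cbd-1* was the highest in *mut-16* at 25ºC (27.2 ± 3.42 TPM, SD, n = 2), followed by *mbk-2* (22.2 ± 1.73 TPM), *egg-1* (17.6 ± 0.501 TPM) and *egg-4* (13.1 ± 0.0255 TPM). *egg-3* (4.91 ± 0.584 TPM), *egg-2* (4.89 ± 0.373 TPM) and *chs-1* (4.46 ± 0.975 TPM) were the lowest there, and these 3 neighbours overlapped in their libraries. By group mean, *cbd-1* and *mbk-2* also held the first 2 places in the other 3 groups. In *mut-16* at 20ºC their libraries overlapped (18.1 ± 3.19 TPM for *cbd-1* and 18.7 ± 7.28 TPM for *mbk-2*). In wild-type at 25ºC the libraries of *cbd-1* overlapped those of *perm-2*, the next gene. In wild-type at 20ºC the libraries of *cbd-1*, *mbk-2* and *egg-1* overlapped. *egg-2* was last in *mut-16* at 20ºC, at 1.92 ± 0.361 TPM. It also had the lowest mean in both wild-type groups, at 2.74 ± 0.829 TPM at 25ºC and 4.05 ± 1.77 TPM at 20ºC, but its libraries there overlapped those of *chs-1*.

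The first comparison asked what heat stress did in *mut-16* mutants. Transcripts of 8 of the 10 genes were up-regulated in *mut-16* at 25ºC compared to *mut-16* at 20ºC and none was down-regulated (adjusted p at most 0.05 in edgeR, a gene being called where it passed this threshold). Over all 13972 genes tested, 7.71% were called higher and 4.47% lower. The median log2(fold change) of the 10 genes was 0.96, against 0.003 over all genes tested. Of these genes, *egg-1*, *egg-2*, *egg-5*, *chs-1* and *perm-2* also passed the study's cutoff of a log2(fold change) above 1, as did 4.57% of all genes tested on the higher side. For all 10 genes both libraries at 25ºC lay above both libraries at 20ºC, which was so for 30.2% of the genes tested.

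Genes of the oocyte surface and vitelline layer covered most of the range of changes, from 0.46 to 1.47. *egg-2* and its paralog *egg-1* encode oocyte surface proteins with LDL receptor repeats that sperm need to enter the oocyte. *egg-1* stood at 30.4 and 30.9 CPM in *mut-16* at 25ºC, against 14.8 and 11.5 CPM in *mut-16* at 20ºC. *egg-2* stood at 8.02 and 8.71 CPM in *mut-16* at 25ºC, against 2.88 and 3.13 CPM in *mut-16* at 20ºC. Both genes were thus more than doubled, with a log2(fold change) of 1.47 ± 0.294 for *egg-2* (SE, edgeR adjusted p = 0.00469) and of 1.23 ± 0.254 for *egg-1* (adjusted p = 0.00559). The counts behind *egg-2* were low, from 29 to 117 per library.

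CBD-1 binds chitin and holds the PERM-2 and PERM-4 proteins in the vitelline layer, and all 3 are needed for an intact permeability barrier. *cbd-1* had 103 and 119.9 CPM in *mut-16* at 25ºC, against 65.5 and 69.9 CPM in *mut-16* at 20ºC. Its log2(fold change) was 0.72 ± 0.191 (edgeR adjusted p = 0.0249), below the study's cutoff. The replicates of *perm-2* were close, with 7.36 and 7.67 CPM in *mut-16* at 25ºC, against 3.48 and 3.56 CPM in *mut-16* at 20ºC (log2(fold change) 1.09 ± 0.24, adjusted p = 0.00828). *perm-4*, the neighbour of *perm-2*, had 10.5 and 12.2 CPM in *mut-16* at 25ºC, against 7.45 and 8.95 CPM in *mut-16* at 20ºC. Its libraries did not overlap between the temperatures, but its log2(fold change) of 0.46 ± 0.184 did not pass the test (adjusted p = 0.126).

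*chs-1* encodes the chitin synthase that makes the chitin layer. Its level was 15.9 and 21.2 CPM in *mut-16* at 25ºC, against 10.03 and 8.44 CPM in *mut-16* at 20ºC. The log2(fold change) was 1.01 ± 0.273 (edgeR adjusted p = 0.0268), and both libraries at 25ºC lay above both at 20ºC. The ratio of the 2 libraries at 25ºC, 0.75, was the farthest from 1 among the 10 genes.

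*egg-3*, *egg-4* and *egg-5* encode pseudophosphatases, phosphatase-like proteins without the activity, which keep MBK-2 at the cortex and in check until the meiotic divisions proceed. EGG-3 also tethers CHS-1. The level of *egg-3* was 7.94 and 9.16 CPM in *mut-16* at 25ºC, against 5.66 and 3.71 CPM in *mut-16* at 20ºC (log2(fold change) 0.89 ± 0.262, edgeR adjusted p = 0.0411). For *egg-4* the values were 30.5 and 29.7 CPM at 25ºC, against 18.9 and 13.4 CPM at 20ºC (log2(fold change) 0.91 ± 0.201, adjusted p = 0.00849). *egg-5* had 21.3 and 22.5 CPM at 25ºC, against 10.9 and 8.02 CPM at 20ºC, and the smallest adjusted p of the 10 genes in this comparison (log2(fold change) 1.22 ± 0.195, adjusted p = 0.00087). In all 3 genes replicate 2 of *mut-16* at 20ºC was the lowest library.

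*mbk-2*, the kinase held by these proteins, changed least. It had 74.4 and 81.1 CPM in *mut-16* at 25ºC, against 48.1 and 70.3 CPM in *mut-16* at 20ºC. The log2(fold change) of 0.39 ± 0.171 did not pass the test (edgeR adjusted p = 0.166), and the 2 libraries at 20ºC differed from each other by more than did the group means.

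**Figure D1:**
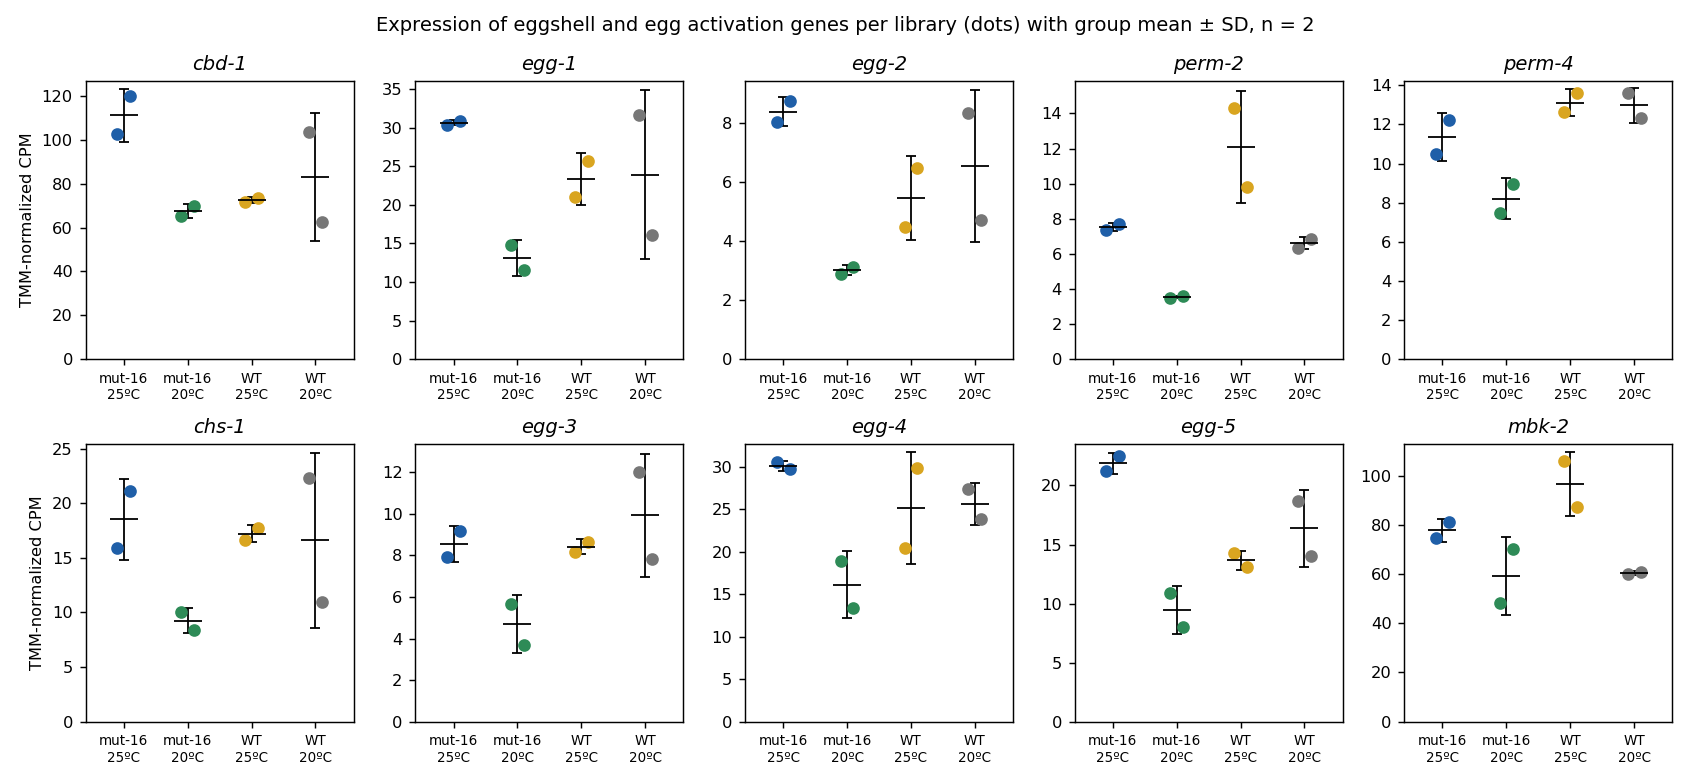
TMM-normalized CPM (y axis, from 0) of the 10 eggshell and egg activation genes in the 4 groups (x axis). Dots are libraries and bars are the mean ± SD of 2 replicates. In every panel both *mut-16* libraries at 25ºC lie above both *mut-16* libraries at 20ºC, and the 2 wild-type libraries at 20ºC stand far apart for *cbd-1*, *egg-1*, *egg-2* and *chs-1*.

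The direction of these changes did not depend on the choice of libraries, but the number of calls did. All 10 genes kept a positive log2(fold change) in *mut-16* under each of 15 alternative analyses. The count of genes up-regulated dropped to 5 without replicate 1 and 3 without replicate 2 of *mut-16* at 20ºC, and to 4 without replicate 1 and 3 without replicate 2 of *mut-16* at 25ºC. A group left with a lone library was assumed to vary like the other groups. Of the 8 genes, *egg-2* and *egg-5* stayed past the threshold under all 15 alternatives.

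The second comparison asked what heat stress did in wild-type animals. *perm-2* and *mbk-2* were up-regulated in wild-type at 25ºC compared to wild-type at 20ºC, and no gene of the 10 was down-regulated. Over all genes tested, 1556 were called higher and 1344 lower, which is 20.8% in either direction. The median log2(fold change) of the 10 genes was -0.03, against -0.002 over all genes tested. The other 8 genes lay between -0.27 and 0.04, and in each of them the libraries of the 2 temperatures overlapped.

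*perm-2* had 14.3 and 9.81 CPM in wild-type at 25ºC, against 6.35 and 6.84 CPM in wild-type at 20ºC. It had no overlap between the temperatures, and a log2(fold change) of 0.86 ± 0.218 (edgeR adjusted p = 0.0124). *mbk-2* had 106 and 87.2 CPM in wild-type at 25ºC, against 59.9 and 60.9 CPM in wild-type at 20ºC (log2(fold change) 0.67 ± 0.171, adjusted p = 0.0128). These were the 2 genes of the 10 whose libraries at 25ºC both lay above those at 20ºC, which was so for 29.2% of the genes tested. Both calls were lost without replicate 1 of wild-type at 25ºC, which was the higher library for both genes, and both were lost when libraries were scaled by their totals alone. That scaling moved the median of all genes in this comparison to -0.25, and 24.2% of the called genes were then higher, against 53.7% with TMM.

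The remaining 8 genes differed more between the 2 replicates at 20ºC than between the mean levels of the temperatures. For *egg-1* the values were 21.0 and 25.7 CPM in wild-type at 25ºC, against 31.7 and 16.2 CPM in wild-type at 20ºC. *egg-2* had 4.46 and 6.45 CPM at 25ºC, against 8.34 and 4.71 CPM at 20ºC. *chs-1* had 16.7 and 17.8 CPM at 25ºC, against 22.3 and 10.9 CPM at 20ºC. In these 3 genes replicate 1 at 20ºC was the highest wild-type library, and for *egg-1* and *chs-1* the 2 libraries at 20ºC enclosed both libraries at 25ºC.

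The libraries at 20ºC also enclosed those at 25ºC for *cbd-1*, with 71.5 and 73.4 CPM in wild-type at 25ºC, against 104 and 62.5 CPM in wild-type at 20ºC, and for *egg-3*, with 8.17 and 8.66 CPM at 25ºC, against 12.01 and 7.81 CPM at 20ºC. *egg-4* had 20.5 and 29.8 CPM at 25ºC, against 27.4 and 23.9 CPM at 20ºC. *egg-5* had 14.2 and 13.1 CPM at 25ºC, against 18.7 and 14.1 CPM at 20ºC. *perm-4* stayed within 12.6 and 13.6 CPM at 25ºC, against 13.6 and 12.3 CPM at 20ºC. Replicate 1 of wild-type at 20ºC exceeded replicate 2 by 2.04-fold for *chs-1*, 1.96-fold for *egg-1*, 1.77-fold for *egg-2* and 1.66-fold for *cbd-1*, but the ratio was 1.10 for *perm-4*, 0.983 for *mbk-2* and 0.929 for *perm-2*. The oocyte marker sum differed 1.62-fold between the same libraries, and its part in the result was not tested. Without replicate 1 of wild-type at 20ºC 3 genes were called, *chs-1* being added as up-regulated (0.68), and without replicate 2 also 3, *cbd-1* being added as down-regulated (-0.52).

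**Figure D2:**
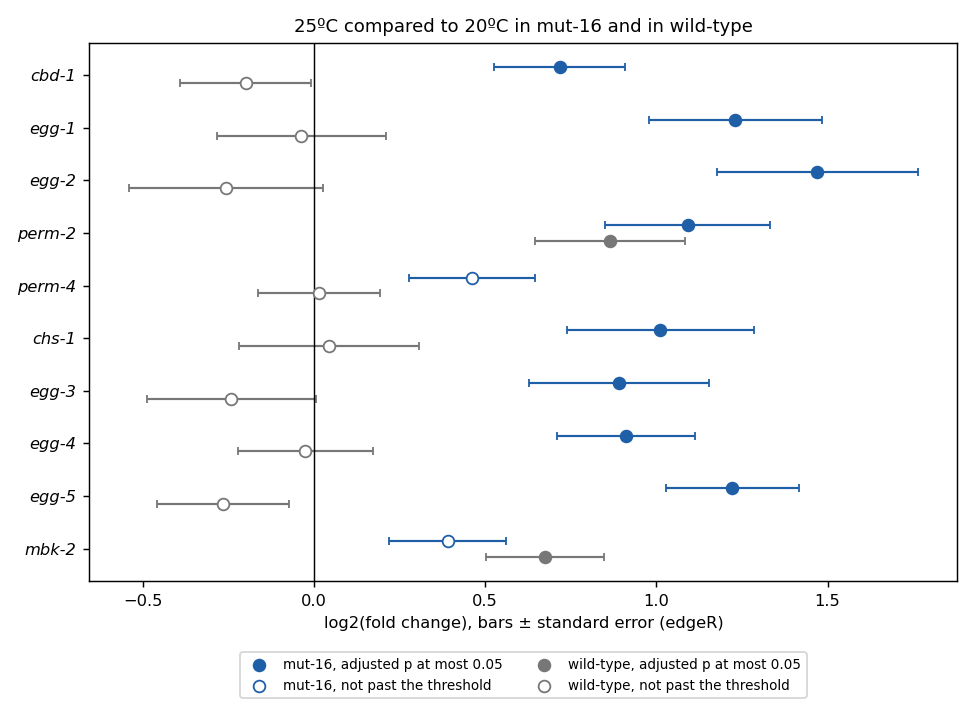
Log2(fold change) at 25ºC compared to 20ºC (x axis) of each gene (y axis) in *mut-16* (blue) and in wild-type (gray), with bars of ± 1 standard error from edgeR. Filled points passed an adjusted p of at most 0.05. All 10 *mut-16* points are above 0 and 8 are filled, while in wild-type only *perm-2* and *mbk-2* are filled.

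Whether the response to heat stress differed between the genotypes was tested as an interaction, the log2(fold change) in *mut-16* minus that in wild-type. It was positive for 9 of the 10 genes, with a median of 0.95 against 0.01 over all genes tested. It passed the test for 2 genes, *egg-2* (1.73 ± 0.409, SE, edgeR adjusted p = 0.0376) and *egg-5* (1.49 ± 0.274, adjusted p = 0.0112), where 1.59% of all genes tested were called higher and 1.5% lower. For *egg-1* (1.27 ± 0.354, adjusted p = 0.0716), *cbd-1* (0.92 ± 0.27, adjusted p = 0.0887) and *egg-4* (0.94 ± 0.282, adjusted p = 0.093) the difference did not pass the test. *mbk-2* was the gene with a negative value (-0.28 ± 0.241, adjusted p = 0.56), and the value for *perm-2* was 0.23 ± 0.324 (adjusted p = 0.754), so the called changes of *perm-2* in both genotypes were not shown to differ.

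The interaction calls rested on single libraries. Without replicate 2 of wild-type at 20ºC 6 genes were called, without replicate 1 of that group 1 gene, and without either replicate of wild-type at 25ºC 1 gene. The count was 1 without replicate 1 and 0 without replicate 2 of *mut-16* at 20ºC, and 0 without either replicate of *mut-16* at 25ºC. With scaling by library totals alone, which moved the median of all genes to 0.19, 5 genes were called.

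The third comparison asked how *mut-16* L4s differed from wild-type at 20ºC. Transcripts of 5 genes were down-regulated in the mutant: *egg-2*, *egg-3*, *egg-5*, *perm-2* and *perm-4*. The log2(fold change) of all 10 genes was negative, though those of *cbd-1* and *mbk-2* turned positive under some alternatives. Over all genes tested, 5.75% were called lower and 2.68% higher. The median log2(fold change) of the 10 genes was -0.83, against -0.05 over all genes tested. The study's cutoff on the lower side was met by *egg-2* and *egg-3*, and by 3.03% of all genes tested.

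The group means of *egg-3* were 4.69 ± 1.38 CPM in *mut-16* at 20ºC and 9.91 ± 2.97 CPM in wild-type at 20ºC (SD, n = 2 each). Its log2(fold change) was -1.11 ± 0.26 (edgeR adjusted p = 0.0175). *egg-2* averaged 3.005 ± 0.175 CPM in *mut-16* at 20ºC and 6.52 ± 2.57 CPM in wild-type at 20ºC, with a log2(fold change) of -1.12 ± 0.301 (edgeR adjusted p = 0.0341). The log2(fold change) was -0.80 ± 0.198 for *egg-5* (adjusted p = 0.0225), -0.90 ± 0.244 for *perm-2* (adjusted p = 0.036) and -0.66 ± 0.183 for *perm-4* (adjusted p = 0.0412). For these 5 genes no *mut-16* library at 20ºC reached the lower of the 2 wild-type libraries.

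*egg-1*, *egg-4* and *chs-1* also did not overlap between the genotypes, so 8 of the 10 genes lay apart on the lower side, as did 27.3% of all genes tested. They did not pass the test. *egg-1* had a log2(fold change) of -0.88 ± 0.256 with an adjusted p of 0.05 that lay just above the threshold (edgeR), *egg-4* one of -0.68 ± 0.203 (adjusted p = 0.0549) and *chs-1* one of -0.86 ± 0.275 (adjusted p = 0.0734). *cbd-1* (-0.30 ± 0.191, adjusted p = 0.389) and *mbk-2* (-0.03 ± 0.172, adjusted p = 0.952) overlapped between the genotypes. The sign of *mbk-2* turned positive with DESeq2, with RLE scaling and with all genes of at least 1 count (0.0084, 0.0093 and 0.029), and that of *cbd-1* did so without replicate 1 of wild-type at 20ºC (0.18).

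None of the 5 calls at 20ºC was independent of the libraries used. No gene was called without replicate 1 of wild-type at 20ºC, where the median of the 10 genes was -0.51, and none without replicate 2 of *mut-16* at 20ºC, where it was -0.67. Only 3 genes were called without replicate 1 of *mut-16* at 20ºC, 1 without replicate 1 and 2 without replicate 2 of *mut-16* at 25ºC, and 6 without replicate 2 of wild-type at 20ºC. The oocyte marker sum, given above, was lower in both *mut-16* libraries at 20ºC than in either wild-type library at 20ºC, and its part in these values was not tested.

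At 25ºC the genotypes differed in fewer genes and in both directions. *egg-5* and *cbd-1* were up-regulated in *mut-16* compared to wild-type at 25ºC, and *perm-2* was down-regulated. Over all genes tested, 1073 were called higher and 1744 lower, which is 20.2% in either direction. *egg-5* averaged 21.9 ± 0.884 CPM in *mut-16* at 25ºC and 13.6 ± 0.836 CPM in wild-type at 25ºC (SD, n = 2 each). Its log2(fold change) was 0.68 ± 0.19 (edgeR adjusted p = 0.0214), that of *cbd-1* 0.62 ± 0.191 (adjusted p = 0.035) and that of *perm-2* -0.67 ± 0.215 (adjusted p = 0.0405). None of these reached the study's cutoff. The median log2(fold change) of the 10 genes was 0.18, against 0.002 over all genes tested, and the value for *egg-2* was 0.61 ± 0.277 (adjusted p = 0.147). With scaling by library totals alone the median of all genes moved to 0.18, that of the 10 genes to 0.35, and *perm-2* was no longer called.

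No call was left at 25ºC without replicate 1 of wild-type at 25ºC or without either replicate of *mut-16* at 25ºC. The count was 1 without replicate 2 of wild-type at 25ºC, 1 without replicate 1 of *mut-16* at 20ºC, 2 without replicate 2 of *mut-16* at 20ºC, and 5 without either replicate of wild-type at 20ºC.

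**Figure D3:**
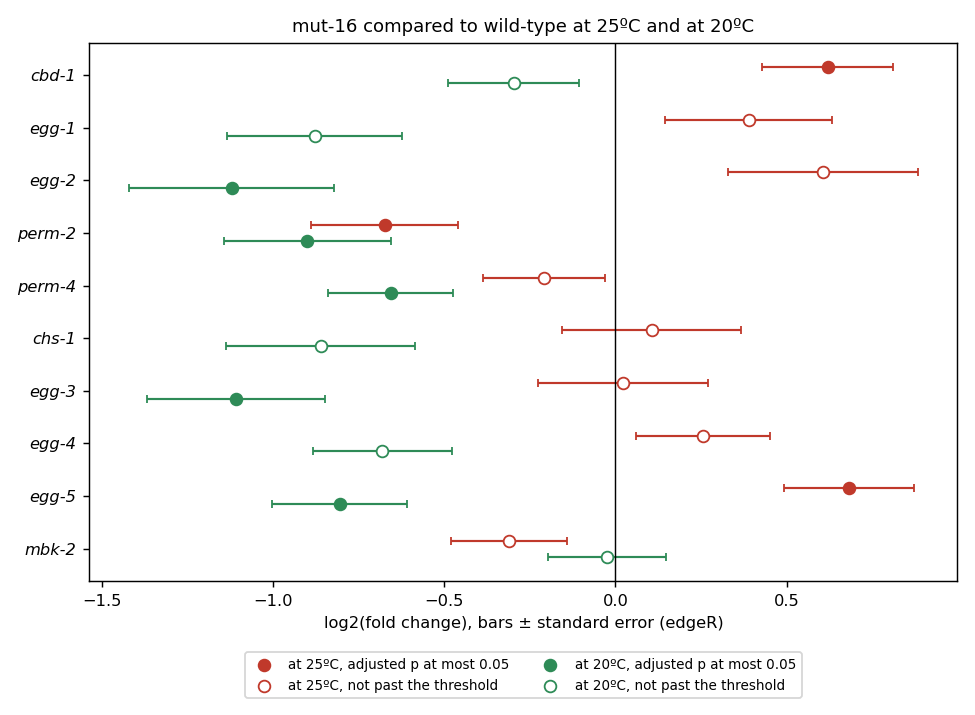
Log2(fold change) in *mut-16* compared to wild-type (x axis) of each gene (y axis) at 25ºC (red) and at 20ºC (green), with bars of ± 1 standard error from edgeR. Filled points passed an adjusted p of at most 0.05. All 10 points at 20ºC are below 0 and 5 are filled, those of *cbd-1* and *mbk-2* turning positive under some alternatives, while those at 25ºC lie on both sides of 0.

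Set against wild-type at 20ºC, *mut-16* at 25ºC showed no call among the 10 genes, where 19.2% of all genes tested were called in either direction by edgeR. At an unadjusted edgeR p under 0.05 there were 2 of the 10 genes, against 4268 of the 13972 genes tested. These 2 were *cbd-1* (log2(fold change) 0.42 ± 0.189, edgeR adjusted p = 0.149) and *egg-5* (0.42 ± 0.185, adjusted p = 0.143), and DESeq2 called 0 of the 10. The median log2(fold change) of the 10 genes was 0.29, against 0.007 over all genes tested. *egg-3* (-0.22 ± 0.242, adjusted p = 0.602) and *perm-4* (-0.19 ± 0.176, adjusted p = 0.511) had negative values. This comparison also depended on replicate 1 of wild-type at 20ºC, without which 5 genes were called and the median was 0.55. These comparisons share libraries, so their values are given side by side and not as independent evidence.

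Reads of near-identical paralogs can be divided between the genes by the counting program. *egg-1* and *egg-2* had whole counts in all 8 libraries (within 0.01 of a whole number), as did 6 of the other genes. *egg-4* and *egg-5* had fractional counts in all 8 libraries, while their sum was whole in all 8, so part of their reads was assigned between these 2 genes. The share of *egg-4* in the sum was 57% to 59% in *mut-16* at 25ºC, 62.5% to 63.4% in *mut-16* at 20ºC, 59% to 69.5% in wild-type at 25ºC and 59.5% to 62.9% in wild-type at 20ºC. How many reads were shared was not measured, so single values of *egg-4* and *egg-5* carry an uncertainty that is not known here.

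The sum of a pair does not depend on how reads were divided within it. *egg-4* and *egg-5* together had 51.8 and 52.2 CPM in *mut-16* at 25ºC, against 29.8 and 21.4 CPM in *mut-16* at 20ºC, with a log2(fold change) of 1.03 ± 0.178 (edgeR adjusted p = 0.00168). *egg-1* and *egg-2* together had 38.5 and 39.6 CPM in *mut-16* at 25ºC, against 17.7 and 14.6 CPM in *mut-16* at 20ºC (1.28 ± 0.245, adjusted p = 0.00349). In wild-type neither sum passed the test, with a heat log2(fold change) of -0.11 ± 0.176 for *egg-4* and *egg-5* (adjusted p = 0.709) and of -0.08 ± 0.238 for *egg-1* and *egg-2* (adjusted p = 0.858). The interaction was called for both sums, at 1.14 ± 0.25 (adjusted p = 0.0261) for *egg-4* and *egg-5* and at 1.36 ± 0.341 (adjusted p = 0.0482) for *egg-1* and *egg-2*. In *mut-16* compared to wild-type at 20ºC both sums were down-regulated, by -0.72 ± 0.179 (adjusted p = 0.0231) and by -0.93 ± 0.246 (adjusted p = 0.0329). At 25ºC neither sum passed the test (adjusted p = 0.11 and adjusted p = 0.226), whereas *egg-5* alone had done so.

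The calls on the sums depended on single libraries as well. Without replicate 1 of wild-type at 20ºC the value at 20ºC was -0.31 for *egg-1* and *egg-2* (edgeR adjusted p = 0.31) and -0.51 for *egg-4* and *egg-5* (adjusted p = 0.108), and neither passed the test. Neither did so without replicate 2 of *mut-16* at 20ºC (-0.74 and -0.45) or without replicate 1 of *mut-16* at 25ºC (-0.87 and -0.67), and *egg-1* and *egg-2* also did not without replicate 1 of *mut-16* at 20ºC (-1.06) or replicate 2 of *mut-16* at 25ºC (-0.92), nor with the replicate number as a block (-0.90). The interaction of *egg-1* and *egg-2* was lost under 9 of 12 alternatives, among them 7 of the 8 libraries left out, with 0.78 (adjusted p = 0.0587) without replicate 1 of wild-type at 20ºC. That of *egg-4* and *egg-5* was lost under 4 of 12, without replicate 1 of wild-type at 25ºC (1.00), replicate 2 of *mut-16* at 20ºC (0.90) and either replicate of *mut-16* at 25ºC (1.12 and 1.14). The heat call in *mut-16* was lost for *egg-1* and *egg-2* without replicate 2 of *mut-16* at 20ºC (1.13, adjusted p = 0.0656) and was kept for *egg-4* and *egg-5* under all 12.

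*perm-2* and *perm-4* did not keep a fixed ratio. *perm-2* made up 38.6% to 41.3% of their summed counts in *mut-16* at 25ºC, 28.5% to 31.8% in *mut-16* at 20ºC, 41.9% to 53.1% in wild-type at 25ºC and 31.8% to 35.6% in wild-type at 20ºC. The share was thus higher at 25ºC in both genotypes without overlap between the temperatures of a genotype. This ratio was not tested, and the counts behind *perm-2* were low, from 35 to 135 per library. The share of *egg-1* in the sum of *egg-1* and *egg-2* lay between 77.4% and 83.7% over the 8 libraries, and the groups overlapped.

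**Figure D4:**
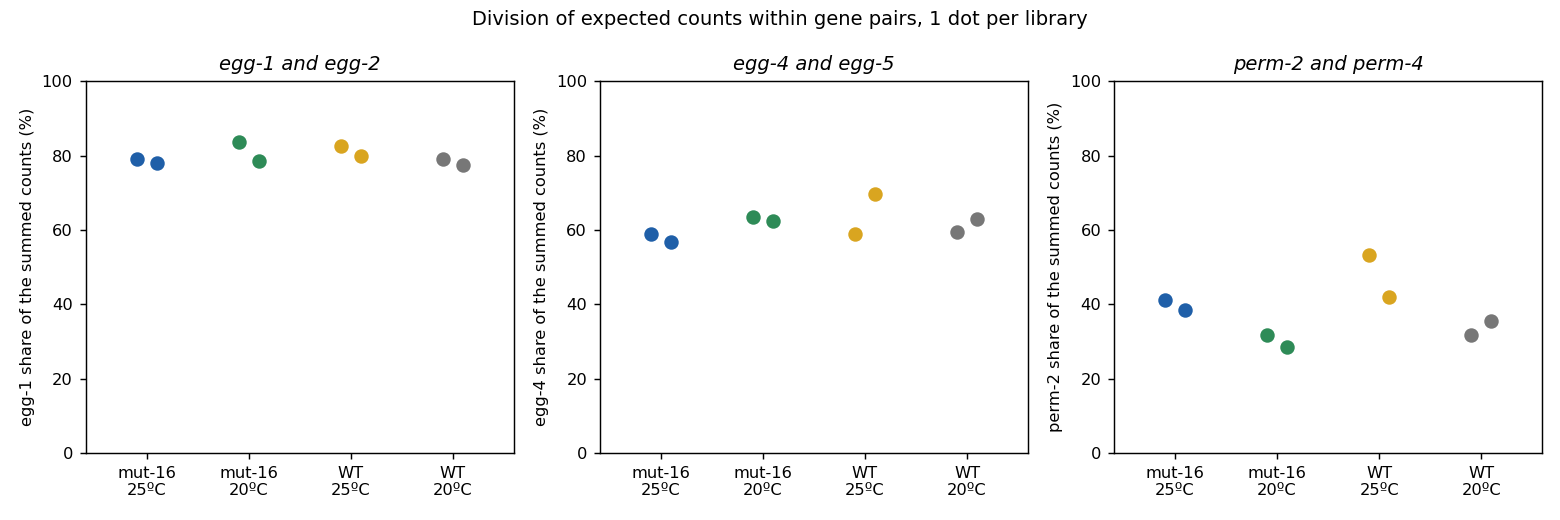
Share (y axis, percent, 0 to 100) that the first gene of a pair takes of the summed expected counts, in the 4 groups (x axis), with 1 dot per library. The *perm-2* share is higher at 25ºC than at 20ºC in both genotypes, whereas the *egg-1* share stays between 77.4% and 83.7%.

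Genes that act beside these 10 were counted from lists by role, with the test over all genes. Of the 4 enzymes measured that make the precursor of chitin, 2 were up-regulated in *mut-16* at 25ºC compared to *mut-16* at 20ºC: *gfat-2*, which encodes the first enzyme of the hexosamine pathway (log2(fold change) 1.00 ± 0.209, edgeR adjusted p = 0.00609), and *gna-2*, an acetyltransferase of that pathway (0.84 ± 0.226, adjusted p = 0.0272). Of 12 genes of the chondroitin layer, 3 were up-regulated and none was down-regulated. These were *cpg-1*, *cpg-2* and *cpg-3*, which encode chondroitin proteoglycan core proteins, with log2(fold change) values of 0.69, 0.95 and 1.63. The 9 genes that serve in building the chondroitin chains lay between -0.07 and 0.43 and none passed the test. All 5 genes for MBK-2 substrates were up-regulated, from 0.51 for *mei-1*, a subunit of the microtubule-severing katanin, to 1.53 for *oma-2*, an oocyte maturation factor. With a *mut-16* library left out, 2 of these 5 were called in each of the 4 cases, as were 0 or 1 of the chitin precursor enzymes and 1 or 2 of the chondroitin layer genes.

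Of 6 lipid enzymes of the permeability barrier 1 was up-regulated, the cytochrome P450 gene *cyp-31A2* (0.83 ± 0.254, edgeR adjusted p = 0.0492). Of 9 cell cycle and degradation genes 1 was, the cyclin B gene *cyb-3* (0.64 ± 0.179, adjusted p = 0.0335), and of 4 genes of cortical granule traffic none was. Of 6 sperm factors of fertilization that passed the filter 1 was down-regulated, *spe-11* (-1.16 ± 0.275, adjusted p = 0.0133), which acts from the sperm in egg activation. The paralogs *chs-2* (-0.84 ± 0.411, adjusted p = 0.223) and *mbk-1* (0.13 ± 0.164, adjusted p = 0.687) did not pass the test. With a *mut-16* library left out, no lipid enzyme and no cell cycle gene was called higher in any of the 4 cases, and a sperm factor was called lower in 1 of them.

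Of the oocyte markers, 5 of 6 were up-regulated in *mut-16* at 25ºC, with a list median of 1.03, next to the median of 0.96 of the 10 genes. These were the yolk receptor gene *rme-2* (0.64), the Pumilio family genes *puf-3* (1.06), *puf-5* (1.44) and *puf-11* (1.16), and *spn-4* (0.99), which encodes an RNA-binding protein. The remaining marker, *lin-41*, changed less and did not pass the test (0.19 ± 0.193, edgeR adjusted p = 0.595). Of 8 general germline markers none passed the test, with a list median of 0.05. In *mut-16* compared to wild-type at 20ºC, 4 of the 6 oocyte markers were down-regulated (list median -0.89), as was 1 of the 8 germline markers, the helicase gene *glh-2* (-1.04 ± 0.21, adjusted p = 0.00725, edgeR). The oocyte markers were not uniform here, since 5 had negative values and *lin-41* a positive one (0.45 ± 0.199, edgeR adjusted p = 0.198). Between the genotypes at 25ºC, *lin-41* was the 1 oocyte marker called, as higher in *mut-16* (1.07 ± 0.205, edgeR adjusted p = 0.00254). Without replicate 1 of wild-type at 20ºC 1 of the 6 oocyte markers was called lower at 20ºC (list median -0.40), and *glh-2* stayed past the threshold. Without replicate 2 of *mut-16* at 20ºC no oocyte marker was called at 20ºC and 1 was called higher with heat in *mut-16*, a count that was 2 or 3 with another *mut-16* library left out. The *glh-2* call at 20ºC was lost when replicate 1 or replicate 2 of *mut-16* at 20ºC was left out. The part of the oocyte markers in the values of the 10 genes was not tested.

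Markers of yolk and adulthood, 6 vitellogenin genes and the adult collagen gene *col-19*, were called in both directions. In *mut-16* at 25ºC, *col-19* (2.72 ± 0.249, edgeR adjusted p = 7.45e-06) and *vit-5* (1.37 ± 0.372, adjusted p = 0.0272) were up-regulated, and the list median was -0.13. In wild-type at 25ºC *col-19* was up-regulated (1.95 ± 0.216, adjusted p = 2.75e-05) and *vit-3* (-1.20), *vit-4* (-1.47) and *vit-6* (-0.82) were down-regulated, with a list median of -0.41. In *mut-16* compared to wild-type at 20ºC, 5 of the 7 were down-regulated, *vit-2*, *vit-3*, *vit-4*, *vit-5* and *col-19*, with a list median of -1.38, and 5 were so without replicate 1 of wild-type at 20ºC as well. That count was 1 without replicate 1 and 3 without replicate 2 of *mut-16* at 20ºC, and the count of 2 with heat in *mut-16* was 1 with either of these libraries left out or without replicate 2 of *mut-16* at 25ºC. The part of these markers in the values of the 10 genes was not tested.

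At 20ºC the related lists were lower in *mut-16* for single genes. *gfat-2* (-0.97 ± 0.209, edgeR adjusted p = 0.0106), *cpg-2* (-0.995 ± 0.19, adjusted p = 0.00514), *cpg-3* (-1.87 ± 0.256, adjusted p = 0.000453), *oma-1* (-0.87 ± 0.251, adjusted p = 0.0478) and *mex-6* (-0.99 ± 0.217, adjusted p = 0.0118) were down-regulated. The acetyl-CoA carboxylase gene *pod-2* was up-regulated (0.54 ± 0.155, adjusted p = 0.0486). Without replicate 1 of wild-type at 20ºC *cpg-2* (-0.59) and *cpg-3* (-1.75) stayed past the threshold, while *gfat-2* (-0.47), *oma-1* (-0.26), *mex-6* (-0.65) and *pod-2* (0.50) did not. The calls of *gfat-2* and *pod-2* were also lost without replicate 2 of *mut-16* at 20ºC, where those of *cpg-2* and *cpg-3* were not both kept. Those of *oma-1* and *mex-6* were lost without replicate 1 of *mut-16* at 20ºC. In heat-stressed wild-type, none of the genes for chitin precursors, the chondroitin layer, MBK-2 substrates or oocyte markers passed the test with all libraries. The median of each of these lists depended on the wild-type libraries at 20ºC. It was positive without replicate 1 (0.39 for the oocyte markers) and negative without replicate 2 (-0.44 for the oocyte markers).

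**Figure D5:**
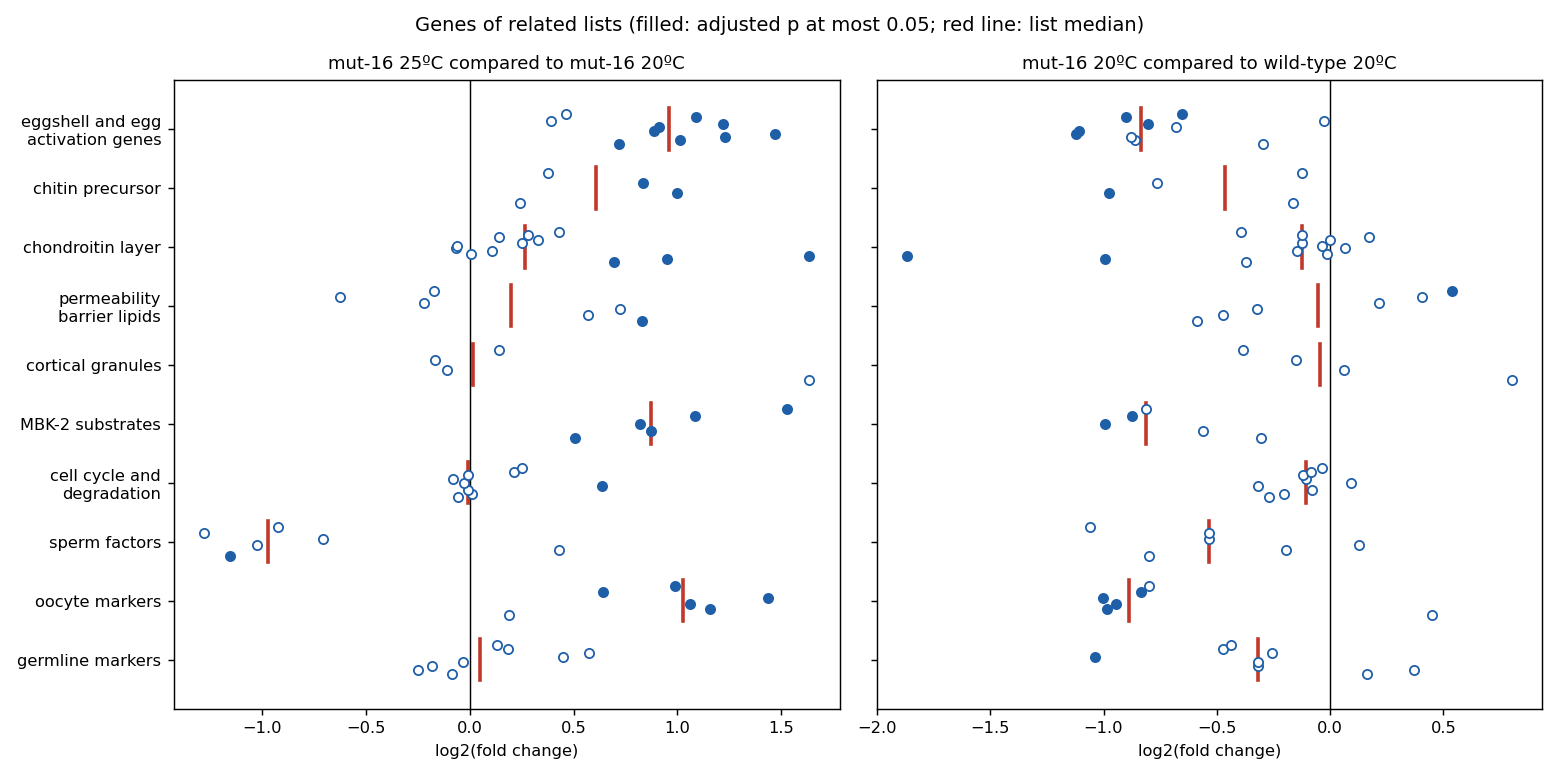
Log2(fold change) (x axis) of the genes of 10 lists (y axis) in *mut-16* at 25ºC compared to 20ºC (left) and in *mut-16* compared to wild-type at 20ºC (right). Filled points passed an adjusted p of at most 0.05 and red lines are list medians. The 10 eggshell and egg activation genes have medians of 0.96 (left) and -0.83 (right), and the oocyte markers 1.03 and -0.89.

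Across the 8 libraries the 10 genes did not follow a single profile to the same degree. Correlated with the mean of the other 9 genes (Pearson's r of log2 CPM over 8 libraries that share these groups, as a description), *egg-1* had an r of 0.946 and *chs-1* of 0.944, whereas *cbd-1* had 0.683, *perm-2* 0.663 and *mbk-2* 0.431. Outside all lists, the 5 genes most like the mean profile among 8890 genes compared were *pal-1* (r = 0.977), C14B1.2 (r = 0.975), F11A10.5 (r = 0.974), T24D1.3 (r = 0.972) and *gln-6* (r = 0.972). *pal-1*, a caudal-type homeobox gene, had 13.7 and 13.7 CPM in *mut-16* at 25ºC, against 8.25 and 8.58 CPM in *mut-16* at 20ºC. Each of these 5 genes stayed among the 50 most alike when any of the 8 libraries was left out. They were picked on the same libraries, so this is no independent check.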

How the data were processed

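Per the labels and the study's methods, the authors trimmed adapters with Cutadapt, quantified reads on the transcriptome of WS258 with Salmon and deposited expected counts per gene for each of the 8 libraries, not scaled for library size or length. The library kit marked the strand. Of 46453 gene names, 4 were repeated and 46260 were matched to the Ensembl annotation of WBcel235, which gave symbols, positions and transcript lengths. Ribosomal RNA genes took 9.83% to 14.3% of the counts. The names *spe-41* and *syx-4* replaced older symbols in the lists, and *uap-1* was not matched. The 10 genes, the lists and the tests were chosen with earlier results of these data known.

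Expected counts were rounded, filtered by filterByExpr (minimum count 10) and scaled by TMM (factors 0.858 to 1.10). All 8 libraries and 13972 genes were fitted as 4 groups with edgeR 4.0.16 in R 4.3.3 (quasi-likelihood test, no block, common dispersion 0.0153), and Benjamini-Hochberg adjustment ran over all genes of a comparison. Calls needed an adjusted p of 0.05 or less, and the study's cutoff adds an absolute log2(fold change) above 1. Fold changes of edgeR use its default prior count, and the log2 CPM used for correlations have a prior count of 2. Standard errors were computed from the edgeR test, as the absolute log2(fold change) divided by the square root of its F statistic. The fit was also run on simulated counts with the same spread for every gene. That run could not test the replicate differences seen in these libraries. Alternatives were DESeq2 1.42.0, other scaling, other filters, a replicate block, fits of 2 groups, summed paralogs and leaving out each library. Genes named were the 10, list genes past the threshold or that a result turned on, and the 5 most alike in profile. With 2 replicates the spread of a gene is borrowed largely from the other genes. The counts carry no molecular identifiers, so precision beyond counting error is not known. The p-values rest on a spread between these cultures that is shared over the 4 groups. No sequence is printed, since no genome was used here.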

Additional observations from a re-analysis of the deposited data

Results flagged for a closer look

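The response to heat stress differed between the genotypes for 2 of the 10 genes by the interaction test. For *egg-2* the log2(fold change) in *mut-16* exceeded that in wild-type by 1.73 ± 0.409 (SE, edgeR adjusted p = 0.0376), and for *egg-5* by 1.49 ± 0.274 (adjusted p = 0.0112). In both genes the 2 *mut-16* libraries at 25ºC lay above the 2 at 20ºC, while the wild-type libraries of the temperatures overlapped. Counts of *egg-5* include reads assigned between it and *egg-4*, and the interaction of their sum was 1.14 ± 0.25 (adjusted p = 0.0261). None of these calls held under every library left out.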

How the results depend on the processing

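Over 1070 values of single genes or summed pairs under an alternative, 869 kept their direction and their side of the threshold, 116 lost a call, 49 gained one and 36 changed sign. None of the sign changes was in *mut-16* at 25ºC compared to 20ºC. The cause of the changes that follow was not tested. The lists of related genes with each library left out were added after seeing the data. With 2 replicates of a gene at 29 to 117 counts, as for *egg-2*, depth and the spread between libraries limit what can be told.

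In *mut-16* compared to wild-type at 20ºC, the 5 genes called of the 10 became 3 with DESeq2, 8 when all genes with at least 1 count were tested and 0 in a fit of the 2 groups. All genes called numbered 1814 with at least 1 count and 711 in the fit of 2 groups, against 1178. The log2(fold change) of *mbk-2* was then 0.0084 with DESeq2, 0.0093 with RLE scaling, 0.029 with at least 1 count and 0.021 in the fit of 2 groups. The interaction count of 2 became 4 with DESeq2, 5 with library totals only and 7 with at least 1 count, and all genes called numbered 656 and 1211 under the last 2 settings, against 431. In wild-type at 25ºC compared to 20ºC, the count of 2 became 0 with library totals only and 1 in a fit of the 2 groups, and *chs-1* moved to -0.21 and *perm-4* to -0.23 with library totals only. In *mut-16* compared to wild-type at 25ºC, the fit of the 2 groups called 5 of the 10 and 4296 genes in all, against 3 and 2817. *mut-16* at 25ºC compared to wild-type at 20ºC gave 1 call of the 10 with at least 1 count, against 0.

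A replicate block changed the count at 20ºC to 2, the interaction count to 1 and the wild-type heat value of *egg-1* to 0.0087. Replicates with the same number did not deviate together, with correlations from -0.165 to 0.073, so a shared number was not read as a pairing. Because 2 correlations were under -0.1, a block with crossed numbers was added after seeing the data, and it called 7 of the 10 and 1387 genes at 20ºC, and 0 and 2893 for *mut-16* at 25ºC compared to wild-type at 20ºC.

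Leaving out each library in turn gave 3 to 8 of the 10 and 715 to 2229 genes for heat stress in *mut-16*, and 0 to 3 of the 10 and 1445 to 3189 genes for heat stress in wild-type. It gave 0 to 6 of the 10 and 391 to 1496 genes for the mutation at 20ºC, 0 to 5 and 1176 to 3598 for the mutation at 25ºC, 0 to 5 and 1289 to 3097 for *mut-16* at 25ºC compared to wild-type at 20ºC, and 0 to 6 and 124 to 1093 for the interaction. Wild-type heat values ranged from -0.44 to 0.56 for *egg-1*, -0.61 to 0.25 for *egg-2*, -0.52 to 0.13 for *egg-3*, -0.33 to 0.21 for *egg-4*, -0.38 to 0.68 for *chs-1*, -0.52 to 0.24 for *cbd-1* and -0.058 to 0.11 for *perm-4*. The sums of *egg-1* with *egg-2* ranged from -0.48 to 0.49 and of *egg-4* with *egg-5* from -0.28 to 0.058. At 20ºC *cbd-1* ranged from -0.58 to 0.18 and *mbk-2* from -0.28 to 0.22, and at 25ºC *egg-3* from -0.085 to 0.15 and *chs-1* from -0.12 to 0.32. In *mut-16* at 25ºC compared to wild-type at 20ºC, *egg-1* ranged from -0.018 to 0.98, *egg-3* from -0.46 to 0.19, *chs-1* from -0.24 to 0.82 and the sum of *egg-1* and *egg-2* from -0.0075 to 0.96. The interaction of *perm-2* ranged from -0.028 to 0.51.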
